A study of Rattus norvegicus with 10 samples.

Results

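The genes described here are the potassium channel genes of the rat, taken as every mRNA probe of the array whose RefSeq gene symbol starts with Kcn and grouped by subfamily. The rule used no measured value. It gave 89 RNAs of 83 genes among 15323 mRNA probes, 14274 of which had a RefSeq symbol. Each of the 89 RNAs was represented by 1 probe. RNA from the lumbar enlargement of the spinal cord of 10 male Sprague Dawley rats was measured on 1 one-colour array per rat. The MT (morphine tolerance) rats, numbered 1 to 5, were given morphine intrathecally, 10 μg in 10 μl, with 2 injections a day for 7 days, and the NS (normal saline) rats, numbered 6 to 10, had received 10 μl of saline on the same schedule. Per the study's methods, on the day after these 7 days the rats received a further morning injection of morphine or saline. They were anesthetized 1 hour later for tissue collection. The age of the rats was not given in the sources used here, and every value describes a mixed tissue of neurons, glia and vessels.

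Potassium channels let potassium leave the cell, which brings the membrane towards rest and limits firing. Voltage-gated pore subunits (Kv, KCNQ and EAG families) open on depolarization, and the silent modifier subunits (Kcng, Kcns, Kcnv) form channels only together with Kv2 partners. Inward rectifiers (Kcnj) include the GIRK channels, which the G proteins of opioid receptors open, and the channels that astrocytes use to buffer potassium. Tandem-pore (K2P) channels (Kcnk) carry leak current, and calcium- or sodium-activated channels (Kcnma1, Kcnn, Kcnt) respond to ions that enter during activity. Auxiliary subunits (Kcnab, Kcne, Kcnip, Kcnmb) set the gating and surface delivery of the pores.

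By their scan times the arrays formed 3 slides. Slide 1 held 4 MT rats (1, 3, 4, 5), slide 2 held MT rat 2 together with NS rats 6, 7 and 10, and slide 3, scanned on a different day, held NS rats 8 and 9. The share of spots well above background ran from 81.1% to 83.9% in the MT rats and from 58.6% to 79.6% in the NS rats, with slide 3 the lowest (58.6% and 63.8%). Only slide 2 holds both groups, so its value (MT rat 2 minus the mean of NS rats 6, 7 and 10) is given beside the results as the within-slide value. Levels are quantile-normalized log2 intensities, and differences are MT minus NS on that scale with limma's standard error (SE) and a Benjamini-Hochberg adjusted p over all 20259 RNAs tested. The number of arrays limits the precision of every value. Fewer cells of a type and less RNA per cell cannot be told apart in this tissue. Markers of spinal cord cells were measurable, including 14 of 15 neuronal and 4 of 6 motor neuron genes, and none of these met the study's criteria described below. The 14 neuronal genes had a median difference of 0.00, with 7 above 0 and 7 below, and for 2 of them, Eno2 (0.45) and Map2 (0.48), every MT rat was above the NS rats, as for 2.29% of all mRNAs. All 4 motor neuron genes were above 0, with a median of 0.29. The part of these markers in the channel values was not tested.

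Most potassium channel RNAs were measurable in the lumbar cord. Of the 89, 63 were well above background on all 10 arrays and 5 on none. The 81 RNAs of 75 genes whose probe was well above background on at least 5 arrays were tested. The 8 that were not were Kcne1, Kcne3, Kcnmb3, Kcnh8 and Kcns2 (0 arrays each), Kcnd1 and Kcnj15 (1 array each) and Kcnj2 (4 arrays). Kcnq5, Kcnf1, Kcnip1, Kcnc4 and Kcnk9 are among the genes not analysed here, because no probe of the array was matched to them.

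Potassium channel RNAs differed little between MT and NS rats as a class, and the larger differences lay in a few genes. The study's criteria were read as more than 1.5-fold apart on the linear scale with p below 0.05 before adjustment, although the methods word the fold as a log2 value, a reading under which 1 RNA (Kcnv2) passed. As read here, they were met by 5 of the 81 RNAs tested, against 2.6% of all 13348 mRNAs tested. Kcnk13, Kcnj5, Kcnv2 and Kcnq1 were lower in the MT group (background for lower, 0.989%) and Kcnj9 was higher (background for higher, 1.61%). None of the 81 passed a limma adjusted p of 0.05, a threshold that 0.232% of all mRNAs passed, and the smallest value was 0.0681 (Kcnk13). An unadjusted p below 0.05 was reached by 11 RNAs, 6 higher and 5 lower, which is 13.6% of the 81 and less than the 16.8% of all mRNAs. The groups did not overlap for 1 RNA that was higher (Kcnj9, background 2.29%) and 1 that was lower (Kcnk13, background 3.49%). The median difference of the 81 was 0.05, with 53 above 0 and 28 below, and that of all mRNAs was -0.02. For 56 of the 81 the difference was smaller than 0.2 in either direction.

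**Figure D1:**
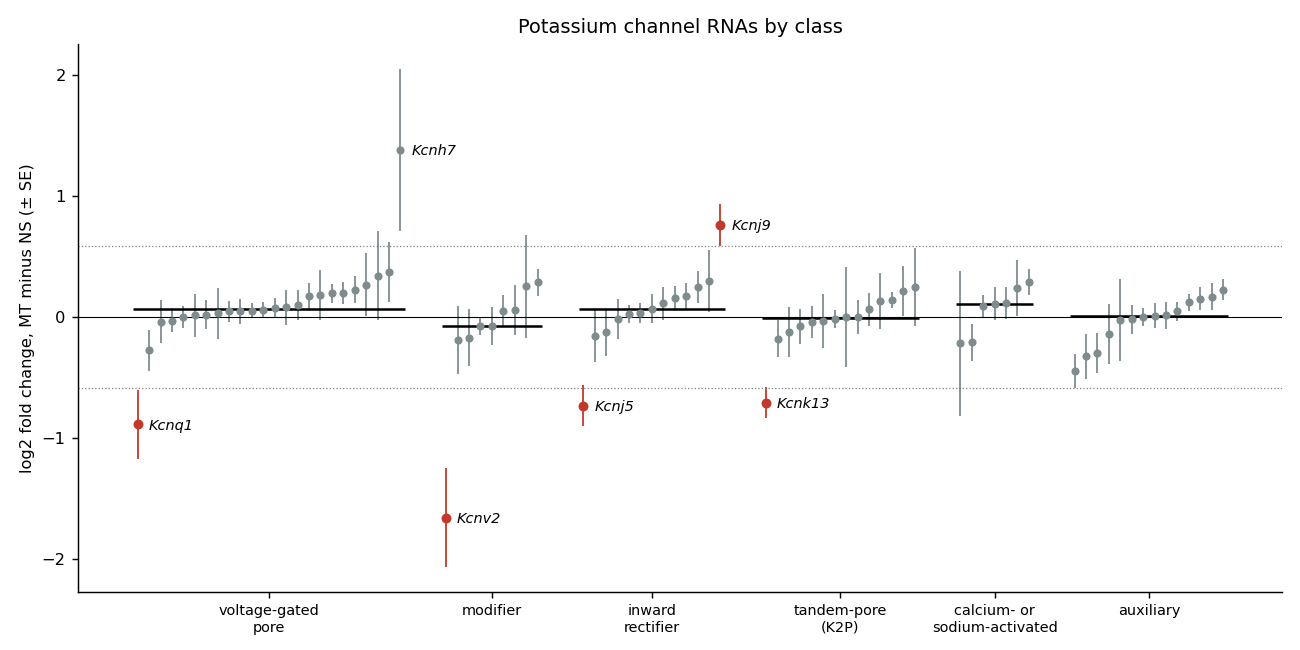
Log2 fold change (MT minus NS, vertical axis) with its standard error for the 81 potassium channel RNAs tested, ordered by value within each class on the horizontal axis. Red points met the study's criteria, black bars are class medians and dotted lines mark a linear fold of 1.5. The 5 red points stand away from class medians that lie between -0.07 and 0.11, and Kcnh7 has the largest positive value with the widest error.

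The class medians were 0.07 for the 24 voltage-gated pore RNAs (20 above 0), 0.07 for the 13 inward rectifiers (9 above 0), 0.11 for the 7 calcium- or sodium-activated channels (5 above 0), 0.01 for the 14 auxiliary subunits (8 above 0), -0.01 for the 14 K2P channels (7 above 0) and -0.07 for the 9 modifiers (4 above 0). Under the 24 other ways of processing the arrays, the first 3 of these medians stayed above 0. The median had another sign in 12 of 24 for K2P channels, 8 of 24 for modifiers and 5 of 24 for auxiliary subunits, so no direction is given for them.

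Among the inward rectifiers, the 4 GIRK subunit genes differed in their values. GIRK channels are tetramers through which opioid receptors hyperpolarize spinal neurons, and Kcnj3 (GIRK1), Kcnj6 (GIRK2), Kcnj9 (GIRK3) and Kcnj5 (GIRK4) encode their subunits. Kcnj9 was the only member higher in the MT group by the study's criteria, and Kcnj5 was lower by about the same amount.

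Kcnj9 had log2 intensities of 6.05, 5.96, 5.89, 6.22 and 6.03 in MT rats 1 to 5 and of 5.68, 5.19, 4.87, 4.92 and 5.69 in NS rats 6 to 10. All MT rats lay above all NS rats, and the lowest NS rats were the 2 of slide 3. The difference was 0.76 (SE 0.17, limma adjusted p = 0.106), a linear fold of 1.69. Within slide 2 it was 0.44, and without slide 3 it was 0.51, both under the fold of 1.5. An exact permutation test (two-sided) gave p = 0.00794, the lowest value possible with 5 rats in each group. Any RNA without overlap gives this value, so it adds nothing to the lack of overlap. The probe was well above background on 5 of 5 MT and 4 of 5 NS arrays. Kcnj9 was therefore left out by the filter on all 10 arrays, and with normexp background correction it missed the study's criteria.

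Kcnj5 had log2 intensities of 8.27, 7.99, 8.61, 8.10 and 8.06 in the MT rats and of 8.68, 9.16, 9.18, 9.14 and 8.52 in the NS rats. MT rat 3 lay above NS rat 10, and the other 4 MT rats lay below every NS rat. The difference was -0.73 (SE 0.17, limma adjusted p = 0.106), a linear fold of 1.66. It was -0.80 within slide 2, and -0.58 without slide 3, where it fell short of the fold of 1.5.

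The other 2 subunits did not pass. Kcnj6, a main subunit of spinal dorsal horn GIRK channels, had MT values from 8.19 to 8.91 and NS values from 8.17 to 8.69, and its difference was 0.11 (95% confidence interval -0.20 to 0.42, limma adjusted p = 0.707). Kcnj3 had MT values from 6.27 to 6.78 and NS values from 6.22 to 6.66, with a difference of 0.07 (95% confidence interval -0.20 to 0.33, limma adjusted p = 0.803). Both ranges overlapped almost fully, and the intervals leave out a difference as large as that of Kcnj9 or Kcnj5. A difference between subunits was not tested.

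**Figure D2:**
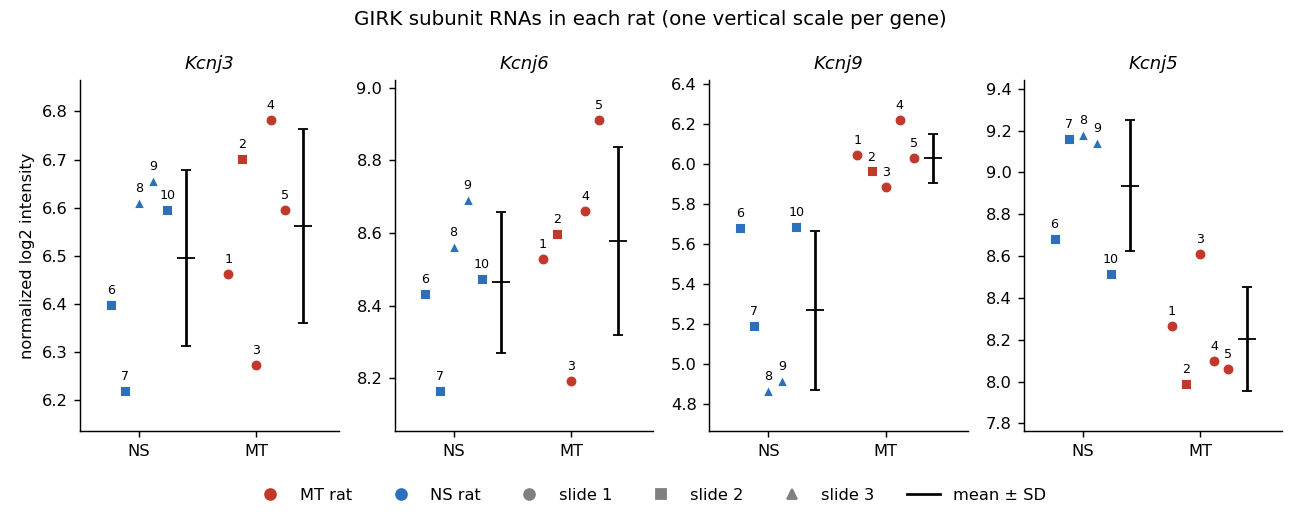
Normalized log2 intensity (vertical axis, 1 scale per gene, levels not comparable between genes) of the GIRK subunit RNAs in the NS and MT rats, with rat numbers, symbols for the slide and the group mean ± SD (n = 5). Kcnj9 separates the groups with all MT rats at or above 5.89, Kcnj5 is lower in the MT group except for MT rat 3, and Kcnj3 and Kcnj6 overlap.

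The promoters of the GIRK genes past the criteria are shown because these neighbours in function differed in opposite directions. The windows run from 250 bases before to 50 bases after the annotated start, 5′ to 3′, from RefSeq (GRCr8), and 57 of the 83 genes had one. Capitals mark matches on either strand to the cAMP response element (TGACGTCA), the GC box (GGGCGG), the TATA box (TATAAA), the CCAAT box (CCAAT) or the PU.1 box (GAGGAAGT), and no matches overlapped in the windows shown.
Kcnj9, chr13:87320244-87320543, - strand: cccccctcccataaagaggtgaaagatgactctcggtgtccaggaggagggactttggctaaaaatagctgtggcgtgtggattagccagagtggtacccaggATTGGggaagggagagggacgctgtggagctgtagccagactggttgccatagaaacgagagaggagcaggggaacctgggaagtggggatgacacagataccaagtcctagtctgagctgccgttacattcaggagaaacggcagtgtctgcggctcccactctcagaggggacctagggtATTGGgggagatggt
Kcnj5, chr8:39011047-39011346, - strand: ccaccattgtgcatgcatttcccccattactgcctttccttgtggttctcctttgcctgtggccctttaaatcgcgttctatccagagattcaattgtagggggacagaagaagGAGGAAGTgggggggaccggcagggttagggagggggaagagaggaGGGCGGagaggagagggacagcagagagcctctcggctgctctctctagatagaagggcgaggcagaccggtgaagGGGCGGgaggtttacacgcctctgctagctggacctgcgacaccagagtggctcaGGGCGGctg
The Kcnj9 window held 2 CCAAT boxes, both read on the opposite strand, and the Kcnj5 window held 3 GC boxes and 1 PU.1 box. Over all 33469 promoter windows, 37.5% held a CCAAT box, 33.1% a GC box and 2.42% a PU.1 box. Among the windows of genes tested, these shares were 38.4%, 53.5% and 2.55%. A match of letters is a description of the window and not a site.

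None of the 9 other inward rectifiers tested met the criteria. Kcnj10, the Kir4.1 channel with which astrocytes take up potassium, had log2 intensities of 6.72, 6.56, 6.89, 6.40 and 6.61 in the MT rats and of 6.37, 6.00, 6.48, 6.42 and 6.66 in the NS rats. The groups overlapped, and the difference was 0.25 (SE 0.13, limma adjusted p = 0.378). Kcnj10 and Kcnj9 lie next to each other on chromosome 13, with no other protein-coding gene starting between them. Kcnj5 likewise adjoins Kcnj1 on chromosome 8, whose difference was -0.01. Kcnj11 and Kcnj8, the pores of ATP-sensitive channels, differed by 0.16 and -0.15, and Kcnj16, which pairs with Kcnj10, by 0.04. These 4 genes were added for their roles or positions after their values were known.

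Of the K2P channels, 1 of 14 RNAs stood apart. Kcnk13 encodes THIK-1, a leak channel known for setting the resting potential of microglia. It had log2 intensities of 9.23, 9.24, 9.11, 9.32 and 9.35 in the MT rats and of 9.79, 10.19, 10.17, 10.09 and 9.54 in the NS rats. The highest MT rat lay below the lowest NS rat, and the MT values spanned a narrower range (SD 0.09) than the NS values (SD 0.28). The difference was -0.71 (SE 0.13, limma adjusted p = 0.0681), a linear fold of 1.63. It was -0.60 within slide 2 and -0.59 without slide 3. The exact permutation test (two-sided) gave p = 0.00794, which again only restates the lack of overlap. Among the 5 RNAs past the criteria, only Kcnk13 also met them in each of the 23 alternatives with a test, over which its limma adjusted p ranged from 0.0297 to 1 (the highest with the slide as a fixed block).
Kcnk13, chr6:124971559-124971858, + strand: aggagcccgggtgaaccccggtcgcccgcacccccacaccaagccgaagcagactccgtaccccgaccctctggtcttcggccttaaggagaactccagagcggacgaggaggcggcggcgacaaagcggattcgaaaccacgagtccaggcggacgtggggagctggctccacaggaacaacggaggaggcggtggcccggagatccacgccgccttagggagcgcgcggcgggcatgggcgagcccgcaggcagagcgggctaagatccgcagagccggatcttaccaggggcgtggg
This window, shown because its gene gave the smallest p of the class, held none of the letters searched. Its GC content was 69.0% and its observed-to-expected CpG ratio 0.929, against medians of 61.7% and 0.566 over the 57 potassium channel windows.

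Microglial markers lay lower in the MT group along with Kcnk13. All 9 markers on the list, among them Aif1, C1qa, C1qb, C1qc, Csf1r, Cx3cr1, Itgam and P2ry12, were well above background on all 10 arrays, and all 9 were lower in the MT group with a median difference of -0.34, beside 7101 lower of all 13348 mRNAs. The groups did not overlap for 3 of them, including Csf1r (-0.34) and P2ry12 (-0.18), where 3.49% of all mRNAs were lower without overlap, and none met the study's criteria. Their mean, relative to the mean of the 10 rats, was -0.13, -0.29, 0.14, -0.47 and -0.02 in MT rats 1 to 5 and 0.11, 0.22, 0.36, 0.24 and -0.15 in NS rats 6 to 10. The log2 of their summed intensities ranged from 17.14 to 17.50 in the MT rats and from 17.38 to 17.97 in the NS rats. NS rat 10 was the lowest NS rat both for Kcnk13 and for the marker mean, while MT rat 3 was the lowest MT rat for Kcnk13 and the highest for the markers. The part of the microglial markers in the Kcnk13 difference was not tested.

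**Figure D3:**
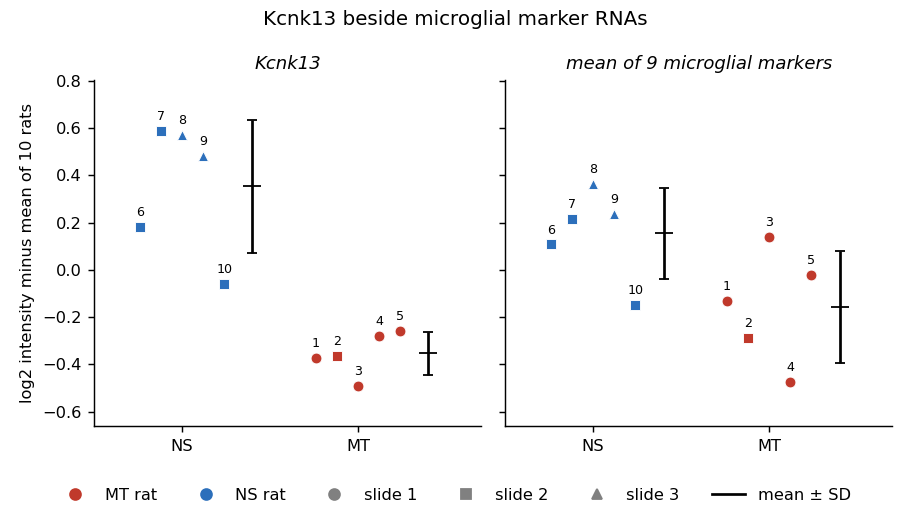
Log2 intensity relative to the mean of the 10 rats (vertical axis, shared) for Kcnk13 and for the mean of 9 microglial markers in the NS and MT rats, with rat numbers, symbols for the slide and the group mean ± SD (n = 5). Kcnk13 separates the groups. For the markers, MT rats 1, 3 and 5 and NS rats 6 and 10 lie within the range of the other group, with MT rat 3 at 0.14 and NS rat 10 at -0.15.

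The other K2P RNAs differed by -0.18 to 0.25. Kcnk3 (TASK-1), an acid-sensitive leak channel of motor neurons and brainstem neurons, had MT values from 9.18 to 9.46 and NS values from 9.11 to 9.26, with a difference of 0.14 (SE 0.07, limma adjusted p = 0.340). Kcnk2 (TREK-1), a channel opened by stretch and arachidonic acid, was measured through 2 RNAs. NM_172042 differed by 0.00 (95% confidence interval -0.31 to 0.31). NM_172041, well above background on 5 of 5 MT and 3 of 5 NS arrays, differed by 0.14, and MT rat 2 at 4.85 lay above the other MT rats (3.73 to 3.99). Since MT rat 2 is the MT array of slide 2, the within-slide difference of NM_172041 was 1.12, so that value rests on 1 array.

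Kcnk18 (TRESK), which is best known from sensory neurons, was also measured through 2 RNAs, and both followed the slides. NM_001003820 had log2 intensities of 4.36, 5.00, 4.82, 4.60 and 4.51 in the MT rats and of 4.91, 4.79, 3.40, 3.83 and 5.12 in the NS rats. The 2 rats of slide 3 were the lowest of the 10. Its difference was 0.25 (SE 0.32, limma adjusted p = 0.722), the largest positive value of the K2P class, and -0.28 without slide 3. NM_001134912 of Kcnk18 differed by 0.00 over all rats and by -0.69 without slide 3, where it met the study's criteria with a limma adjusted p of 0.205. For both RNAs the probe was well above background on 5 of 5 MT and 3 of 5 NS arrays.

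Among the voltage-gated pore subunits, 1 of 24 RNAs met the criteria. Kcnq1, the pore of the slow cardiac potassium current and of epithelial channels, had log2 intensities of 3.39, 3.95, 3.57, 2.60 and 3.51 in the MT rats and of 4.42, 3.93, 4.86, 4.59 and 3.67 in the NS rats. MT rat 2 lay above NS rats 7 and 10, and the highest values were those of the 2 rats of slide 3. The difference was -0.89 (SE 0.28, limma adjusted p = 0.185), a linear fold of 1.85. The within-slide value was -0.06, and the value without slide 3 was -0.60, which missed an unadjusted p of 0.05. The probe was dim, being well above background on 4 of 5 arrays of each group.

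Kcnh7 (Erg3), a neuronal member of the EAG family, had the largest positive difference of all members and failed the p threshold. Its log2 intensities were 8.51, 8.53, 8.67, 8.74 and 8.59 in the MT rats and 8.31, 8.05, 5.61, 5.27 and 8.89 in the NS rats. NS rats 8 and 9, the arrays of slide 3, were far below the other 8 rats, and NS rat 10 lay above every MT rat. The difference was 1.38 (SE 0.67, limma adjusted p = 0.335), 0.19 without slide 3 and 0.12 within slide 2.

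**Figure D4:**
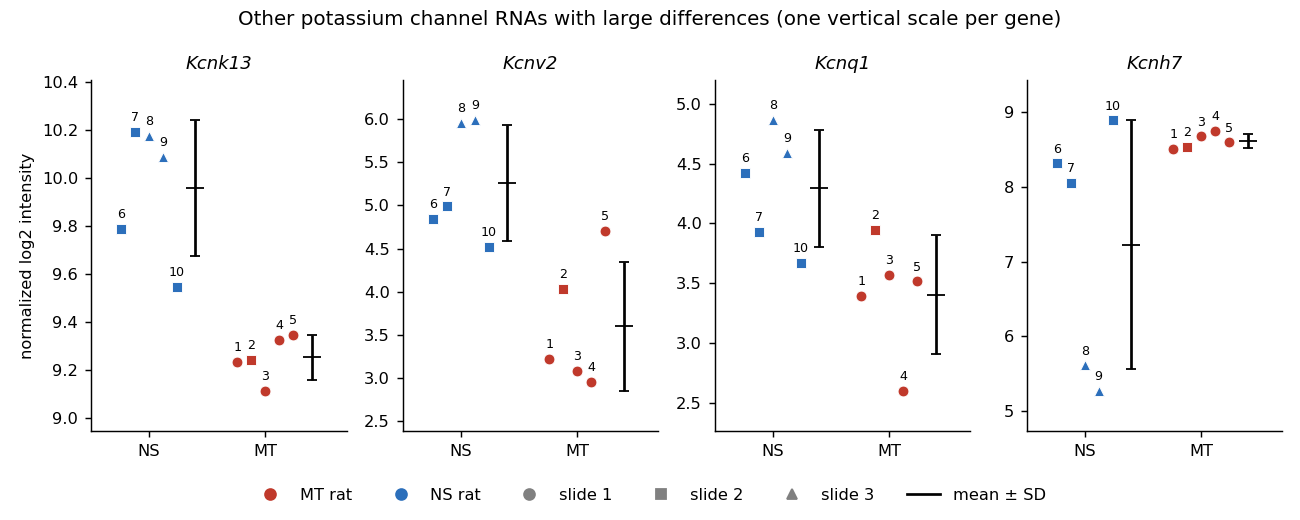
Normalized log2 intensity (vertical axis, 1 scale per gene, levels not comparable between genes) of Kcnk13, Kcnv2, Kcnq1 and Kcnh7 in the NS and MT rats, with rat numbers, symbols for the slide and the group mean ± SD (n = 5). All MT rats of Kcnk13 lie below the NS rats, the groups touch at 1 or more rats for Kcnv2 and Kcnq1, and for Kcnh7 the 2 rats of slide 3 lie at 5.61 and 5.27.

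The delayed rectifier and A-type subunits best known from neurons differed by less. Kcna1, which with Kcna2 forms the axonal Kv1 channels beside the nodes of Ranvier, had MT values from 14.94 to 15.11 and NS values from 14.50 to 15.08, with a difference of 0.23 (SE 0.11, limma adjusted p = 0.333). The 2 rats of slide 3 had its lowest values, 14.50 and 14.62. Kcna2 differed by -0.03 (95% confidence interval -0.24 to 0.18). Kcnd2 (Kv4.2), a carrier of A-type current in the dorsal horn, differed by 0.08 (SE 0.14, limma adjusted p = 0.806) over 9 rats, since its spot on the array of NS rat 8 was marked as an outlier. With outlier spots kept, Kcnd2 differed by -0.20. Kcnq3, a subunit of the M current that restrains repetitive firing, differed by 0.18 (95% confidence interval -0.27 to 0.64, limma adjusted p = 0.677).

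Kcnc2, a pore subunit of fast-spiking neurons, was measured through 2 RNAs. NM_139217 differed by 0.20 (limma adjusted p = 0.271), with an unadjusted p below 0.05. The other RNA of Kcnc2, NM_139216, differed by 0.02 (SE 0.18). Kcnc2 was named after its values were seen.

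The modifier subunits held the largest difference of the class. Kcnv2 (Kv8.2), which is silent alone and known for its role in photoreceptors, had log2 intensities of 3.22, 4.04, 3.08, 2.96 and 4.71 in the MT rats and of 4.84, 4.99, 5.95, 5.99 and 4.52 in the NS rats. MT rat 5 lay above NS rat 10, the other 4 MT rats lay below every NS rat, and the 2 rats of slide 3 were the highest. The group means were 3.60 ± 0.75 and 5.26 ± 0.67 (SD, n = 5 each), and the difference was -1.66 (SE 0.41, limma adjusted p = 0.121), a linear fold of 3.15. Within slide 2 it was -0.75, and the fit with the slide as a fixed block, which gives the same value, left Kcnv2 outside the criteria. Without slide 3 it was -1.18, which met them. The probe was well above background on 3 of 5 MT and 5 of 5 NS arrays, so the MT values lie near the background. With normexp background correction, which adds an offset, the difference was -0.43 and missed the fold of 1.5.
Kcnv2, chr1:234412924-234413223, + strand: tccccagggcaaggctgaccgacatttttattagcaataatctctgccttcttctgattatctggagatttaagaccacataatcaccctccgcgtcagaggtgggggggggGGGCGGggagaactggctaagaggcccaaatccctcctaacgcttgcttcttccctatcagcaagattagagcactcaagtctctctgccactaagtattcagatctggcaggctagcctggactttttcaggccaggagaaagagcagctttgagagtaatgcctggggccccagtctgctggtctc
The window of Kcnv2 is shown as that of the largest difference and held 1 GC box. Kcnq1 had no window in the table used.

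Kcng4 (Kv6.4), another silent subunit, had MT values from 10.57 to 11.08 and NS values from 10.41 to 10.79. It was the modifier with the largest positive difference, 0.29 (SE 0.11, limma adjusted p = 0.258), and the ranges overlapped.

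None of the 7 calcium- or sodium-activated channel RNAs met the criteria. Kcnma1, the BK channel that shortens action potentials, differed by -0.21 (95% confidence interval -0.55 to 0.13, limma adjusted p = 0.518). Kcnn2 (SK2), a source of the afterhyperpolarization of motor neurons, differed by 0.09 (95% confidence interval -0.11 to 0.30, limma adjusted p = 0.633). Kcnt2, a sodium-activated channel, had MT values from 5.93 to 6.48 and NS values from 5.79 to 6.04, with a difference of 0.29 (SE 0.11, limma adjusted p = 0.246) and -0.02 within slide 2.

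Kcnn4 (the intermediate-conductance channel of blood and microglial cells) varied among rats far more than between groups. Its log2 intensities were 7.14, 5.07, 8.00, 5.62 and 5.41 in the MT rats and 6.16, 6.99, 7.06, 6.89 and 5.22 in the NS rats. The highest and the lowest of the 10 rats were both MT rats, and the SD was 1.26 among MT rats and 0.79 among NS rats. The difference was -0.22 (95% confidence interval -1.55 to 1.11, limma adjusted p = 0.877).

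No auxiliary subunit among the 14 RNAs tested met the criteria. Kcne2, which is abundant in choroid plexus and modifies Kcnq1 and other pores, had log2 intensities of 8.51, 8.22, 8.62, 8.37 and 8.14 in the MT rats and of 8.71, 8.91, 9.06, 9.00 and 8.40 in the NS rats. MT rats 1 and 3 lay above NS rat 10, and the difference was -0.45 (SE 0.14, limma adjusted p = 0.186), a linear fold of 1.36. Kcnip3 (DREAM), a calcium sensor known from work on spinal pain signalling, had MT values from 5.61 to 6.03 and NS values from 5.63 to 6.50, with a difference of -0.30 (SE 0.17, limma adjusted p = 0.394). The Kv1 beta subunit Kcnab2 had MT values from 8.51 to 8.76 and NS values from 8.17 to 8.53. Its difference was 0.23 (SE 0.09, limma adjusted p = 0.255) and 0.00 within slide 2. All 3 RNAs of Kcnip2, a partner of Kv4 pores, lay between 0.00 and 0.12.

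Genes that act with these channels were taken from lists drawn up with earlier results of these data known. Of 24 partner genes (anchoring and scaffold proteins, Kv4 and BK accessory proteins and sulfonylurea receptors), 19 were tested through 20 RNAs. None met the criteria, 15 were above 0 and 5 below, and their median difference was 0.10 beside -0.02 for all mRNAs. Dpp10, an accessory protein of Kv4 channels, was the only partner whose groups did not overlap, with a difference of 0.33 (SE 0.08, limma adjusted p = 0.104). Among all mRNAs, 2.29% were higher in the MT group without overlap. Dpp10 was named after its value was seen. Of 29 genes that link opioid receptors to GIRK channels (receptors, G protein subunits, RGS proteins and a sorting nexin), 23 were tested through 25 RNAs, and none met the criteria. Their differences ran from -0.37 to 0.28, with 11 above 0, 14 below and a median of -0.03.

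The rats differed in how often they held the extreme value. Over the 80 channel RNAs with a value on every array, NS rat 9 of slide 3 was the highest for 19 and NS rat 7 the lowest for 24. MT rats 3 and 5 were the highest for 12 and 13, and MT rat 3 was also the lowest for 12. The SD of the channel RNAs about their means was 0.52 and 0.48 in NS rats 8 and 9 of slide 3 and 0.24 to 0.40 in the other 8 rats, and that of all mRNAs in NS rats 8 and 9 was 0.47 and 0.52. Among the 81 RNAs, 4 were lower by more than 1 on slide 3 than in the other NS rats and 2 were higher by as much, beside 862 and 291 of all 13348 mRNAs.

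**Figure D5:**
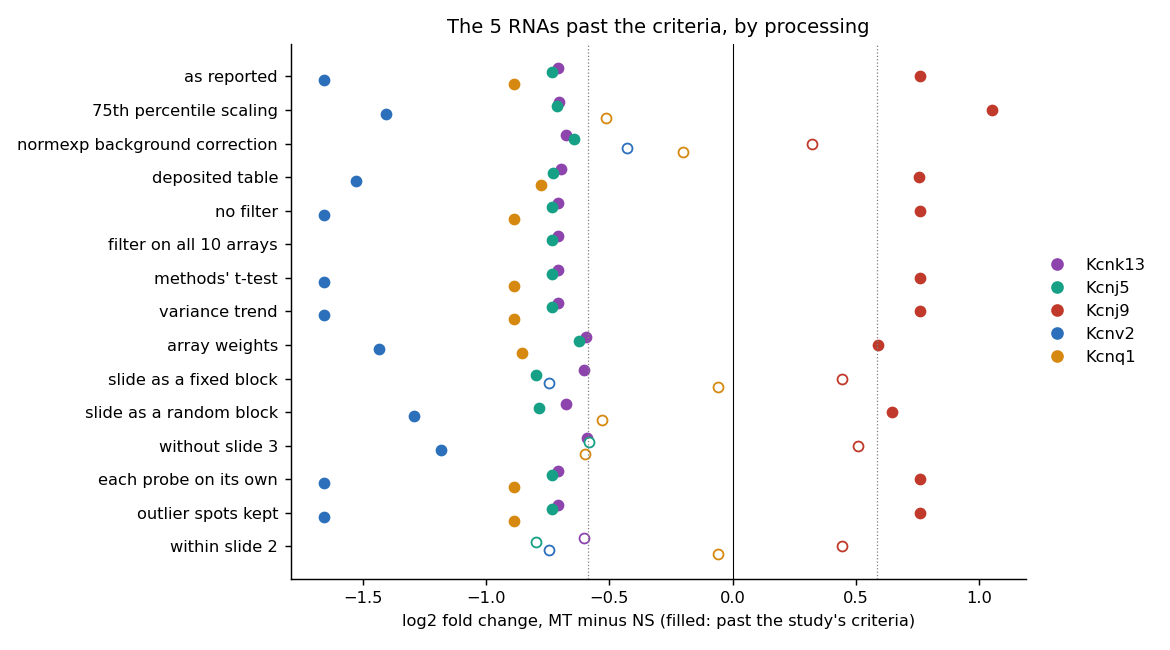
Log2 fold change (MT minus NS, horizontal axis) of the 5 RNAs past the study's criteria under each way of processing the arrays (vertical axis), with filled circles where the criteria were met, open circles where they were not or, for the within-slide values, where there is no test, and dotted lines at a linear fold of 1.5. Kcnk13 stays at or below -0.59 in every line, and Kcnq1 runs from -0.89 to -0.06.

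The directions of the 5 differences held in every alternative that gave a value (24 for Kcnj5 and Kcnk13, 23 for Kcnj9, Kcnv2 and Kcnq1), and their place past the criteria did not. Kcnj5 met them in 22 of 23 alternatives with a test, Kcnv2 in 20 of 22, Kcnj9 in 19 of 22 and Kcnq1 in 17 of 22. Leaving out any single rat kept all 5 past the criteria. Without NS rat 6 or NS rat 10, Kcnh7 met them too, with differences of 1.65 and 1.80.

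The sequences around the starts of the channel genes were rich in GC. The median GC content was 61.7% over the 57 windows, 58.7% over 9929 genes of the mRNAs tested and 51.7% over all 33469 windows. An observed-to-expected CpG ratio above 0.6 was found in 26 of the 57 (45.6%) and in 59.5% of the windows of genes tested. A GC box was present in 29 (50.9%, against 53.5% of genes tested), a CCAAT box in 14 (24.6%, against 38.4%) and a TATA box in 2, Kcnj1 and Kcnj13 (3.51%, against 10.0%). The cAMP response element was in 0 of the 57 windows and in 2.91% of those of genes tested. These shares are given without a test.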

How the data were processed

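Total RNA of the lumbar enlargement of 5 MT and 5 NS rats was labelled with Cy3 and hybridized to 1 one-colour Agilent array (Arraystar rat lncRNA and mRNA design) per rat. Per the labels, the authors extracted the spots with Agilent Feature Extraction 11.0.1.1 and deposited background-subtracted intensity values of 43553 spots per array, 42136 of them not controls, on a linear scale, with outlier and background flags. A second deposited file, a table of log2 values that the authors had quantile normalized, had 24529 entries, matched a probe for 24484 of them and served as an alternative. Precision rests on 10 arrays.

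Processed signals below 1 were set to 1 (the lowest was 1.71), and the log2 values were brought to common quantiles in R 4.3.3 by limma 3.58.1, with files read by the data.table package (version 1.17.8). Spots flagged as outliers were dropped and the rest averaged per probe. Probes stayed in the test where over 50% of the spots exceeded background clearly, by the scanner's flag, on 5 or more arrays. MT was compared with NS by lmFit and eBayes over 20259 RNAs, with single values tested by exact permutation. Symbols, neighbouring genes and promoter windows came from RefSeq (GRCr8). The array names an older build, so no gene coordinates are given beyond those windows. An accession is that of the probe's target in the array files, and probes of different RNAs of a gene may share sequence.

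The members and lists were chosen with earlier results of these data known. Named were members past a threshold or without overlap, the largest positive and negative difference of each class, genes well known in spinal cord or opioid signalling, genes with RNAs that disagree, and partners past the criteria. Alternatives tried were 75th percentile scaling, normexp (offset 50, on the median signals, since the files hold no mean signal), the deposited table, no filter, a filter on all 10 arrays, the methods' t-test, array weights, a variance trend, a fixed and a random slide block, no slide 3, slide 2 alone, each probe on its own, outlier spots kept, a log2 criterion of 1.5 and each rat left out. Arrays were also simulated for the same 2 groups with 20259 RNAs, each value drawn independently and with no slide effect. There, 139 of 200 RNAs changed by a log2 of 1 passed the adjusted threshold beside 9 false calls, and 187 met the study's criteria beside 212. Since slide and group are largely confounded in the real arrays, these counts do not give their error rates. Figures used matplotlib 3.10.9 in Python 3.11.15. The RT-qPCR and behavioural data and the lncRNAs were not used here, and no sample was excluded. A few genes are not reported by name here.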

Additional observations from a re-analysis of the deposited data

Results flagged for a closer look

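For 1 of the 52 groups examined for the RNAs followed singly (5 rats each, but 4 NS rats for Kcnd2), 1 rat lay far from the others. MT rat 2 had a log2 intensity of 4.853 for Kcnk2 NM_172041, and the other 4 MT rats lay between 3.727 and 3.99, a gap of 0.767 of the group's whole range. Chance flags about 1 in 20 such groups. MT rat 2 is the only MT array of slide 2, and the part of the slide in this value was not tested.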

How the results depend on the processing

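The count of RNAs past the study's criteria (5) was 2 with normexp (Kcnj5 and Kcnk13), 2 with the filter on all 10 arrays, 3 without slide 3 (Kcnk13, Kcnv2 and NM_001134912 of Kcnk18) and 1 when the criterion was read as a log2 fold change above 1.5 (Kcnv2). With the slide as a fixed block, where the difference rests on MT rat 2 as the only MT array of slide 2, it was 4. The genes were then Kcnj5, Kcnk13, Kcnk2 (NM_172041) and Kcns1. MT rat 2 had a Kcns1 value of 4.57 and the other MT rats 5.59 to 6.10, and over all rats Kcns1 differed by -0.19. With scaling by the 75th percentile the count was 5, with Kcnj13 in and Kcnq1 out. The Kcnj13 probe was well above background on 5 of 5 MT but 1 of 5 NS arrays, so it stayed in the test through the MT arrays. The share of all mRNAs past the criteria (2.6%) was 1.13% with normexp, 2.23% with the filter on all 10 arrays and 3.78% without slide 3. That share was 1.63% with the slide as a fixed block and 3.76% with scaling by the 75th percentile. The count past an adjusted p of 0.05 in limma (0, with 11 at an unadjusted p below 0.05) was 1 with normexp, with the filter on all 10 arrays, with a variance trend and with array weights, in each case Kcnk13, whose adjusted p over all alternatives ran from 0.0297 to 1. The count without overlap (2) was 4 with scaling by the 75th percentile, 5 with normexp, 1 with the filter on all 10 arrays and 6 without slide 3, while the share of all mRNAs without overlap (5.78%) was 7.01%, 6.05%, 6.58% and 12.5%. The median difference of the channel RNAs (0.05) was 0.14 with scaling by the 75th percentile. Leaving out 1 rat gave 5 to 6 RNAs past the criteria, beside 2.23% to 3.78% of all mRNAs, and medians from 0.02 to 0.07. It gave 0 to 1 past the adjusted threshold (1 without NS rat 10) and 2 to 8 without overlap. The 8 arose without NS rat 10, where 9.34% of all mRNAs were without overlap. There were 5 without MT rat 2 (9.78% of all mRNAs) and 4 without MT rat 3 (7.92%) or MT rat 5 (6.98%). The causes were not tested.

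Of 619 alternative values for 26 RNAs followed singly, 589 were counted as unchanged. Of the rest, 11 were no longer past the criteria and 3 came to pass them. The other 16 belonged to uncalled RNAs and moved by more than the spread between rats. For uncalled RNAs, unchanged means a move smaller than that spread. A called RNA counted as unchanged if it stayed past the criteria, whatever the size of its move. Its within-slide value, which has no test, was counted so too, including -0.06 for Kcnq1 and -0.75 for Kcnv2. Among called values 0 changed sign, while 24 values of uncalled RNAs did. The t-test, the variance trend, the filters and each probe on its own could not move a difference, which holds for part of the 589. No paired analysis was possible because the rats are numbered 1 to 10 and the groups share no number. Signal over background limits Kcnv2, Kcnq1, the RNA NM_172041 of Kcnk2 and both RNAs of Kcnk18, whose probes were near background in several rats. It also limits Kcnj9 and Kcnj13, whose probes were well above background on 4 of 5 and 1 of 5 NS arrays. Slide and group are largely confounded, since 1 of 3 slides holds both groups.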
